A study of Mus musculus with 4 samples.

Results

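Mouse embryonic stem (ES) cells given short hairpin RNAs (shRNAs) against Esrrb and Sox2 together were compared with cells given the Sox2 hairpin alone, which sets out what the Esrrb hairpin added where Sox2 was already targeted. A gene was counted when its detection score, which the authors deposited beside each signal, was above 0.99 on all 4 arrays of the Esrrb and Sox2 group or on all 4 of the Sox2 group. This gave 8006 of the 8248 genes measured in the series. Of the 8006, 7577 passed in both groups, 140 in the Esrrb and Sox2 group alone and 289 in the Sox2 group alone.

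The cells are labelled E14 and embryonic stem cells, and were kept under normal ES cell conditions. The 4 groups were hairpins against Esrrb and Sox2 together (dual), Sox2, Esrrb, and GFP as the control, with 4 arrays each, lettered A to D. All were transfected with a lipofection reagent and kept in puromycin for 2 days before RNA was taken, so both groups compared here carry the Sox2 hairpin, a lipid transfection and puromycin selection. The labels call the arrays of a group replicates without saying that they came from separate transfections. A p-value here therefore weighs a difference against the variation among arrays alone, and that variation may be technical. The labels do not state how much of each hairpin went into a single or a dual transfection.

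Esrrb is an orphan nuclear receptor that binds a half-site, AAGGTCA, preceded by a short extension. Sox2 is an HMG-box factor that binds DNA beside Oct4, the product of Pou5f1. Both belong to the transcription factor network that holds ES cells in the naive state, and factors of this network bind at one another's genes.

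Each array held 25697 probes on a 1-colour Illumina bead array, and 11286 to 13322 of them were detected. In every group arrays A and B lay apart from arrays C and D on the second principal component (13.7% of the variance), and more probes were detected on the C and D arrays. The labels do not say what distinguishes these sets, and each set holds every group. The deviations of dual arrays A and B from their group mean had r = -0.24 across genes, whereas the A and B arrays of the other groups had r of 0.14 to 0.25. Deviations from a mean that holds the same arrays lean to a negative r. The other dual pairs ran from -0.63 (B and C) to 0.11 (C and D), so the value does not show that A and B were opposed. The median SD of a gene was 0.155 log2 units over the dual arrays and 0.118 over the Sox2 arrays. Of 8 ES cell markers, 7 were detected on all 4 dual arrays and 7 on all 4 Sox2 arrays. None of them was called between these groups in the main fit. Sall4, at -0.26, passed in limma with either block. Its adjusted p was 0.042 with the array letter as the block and 0.0242 with the array set. The summed signal of the 8 markers was 57026 to 59868 on the dual arrays and 60280 to 62528 on the Sox2 arrays. Every dual array was thus below every Sox2 array. Of 8 fibroblast markers 2 were detected on all 4 dual arrays and 3 on all 4 Sox2 arrays. Col1a2, Col3a1 and Postn were detected on no array of either group. Of 5 neural markers 2 were detected on all 4 dual arrays and 2 on all 4 Sox2 arrays. Pax6, Sox1 and Tubb3 were detected on no array of either group.

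The targeted genes were read first. All levels below are normalized log2 signals, given for arrays A to D in turn. Esrrb (probe ILMN_1228497) was at 11.65, 11.88, 11.71 and 11.72 with both hairpins, against 12.32, 12.43, 12.22 and 12.22 with the Sox2 hairpin alone. Every dual array lay below every Sox2 array, and the difference was -0.56 (SE 0.07, adjusted p = 0.000126, n = 4 arrays per group), a signal 1.47-fold lower. Without the Sox2 hairpin, Esrrb was at 11.34, 11.40, 11.41 and 11.46 with the Esrrb hairpin, against 13.49, 13.59, 13.45 and 13.50 with the GFP hairpin, a difference of -2.11. The 2 responses to the Esrrb hairpin differed by 1.55 log2 units (SE 0.09, adjusted p = 2.8e-07). The lowest dual array, at 11.65, lay above the highest array of the Esrrb hairpin alone, at 11.46. The Sox2 hairpin alone lowered Esrrb by 1.21 against GFP.

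Sox2 (probe ILMN_2656102) was at 8.64, 8.75, 8.45 and 8.64 with both hairpins, against 9.01, 9.16, 9.02 and 9.20 with the Sox2 hairpin alone. The dual arrays were again all lower, by 0.48 (SE 0.08, adjusted p = 0.00286), and a second Sox2 probe gave -0.64 (adjusted p = 0.0483). Sox2 also fell by 0.55 with the Esrrb hairpin against GFP. Transcripts of both targets were lower in the dual group, so the groups do not have an equal Sox2 level.

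In this contrast 529 of the 8248 genes, or 6.41% of those tested, had an adjusted p below 0.05 (limma, Benjamini-Hochberg). Of these 264 were higher with both hairpins (3.2%) and 265 lower (3.21%). Among the 8006 genes counted above 526 changed (6.57%), 264 of them higher (3.3%) and 262 lower (3.27%). The changes were small: the median size among called genes was 0.42 log2 units, 119 passed 1.5-fold, and 23 passed 2-fold, of which 6 were higher and 17 lower. The median of all genes was 0.01. The 4 dual arrays did not overlap the 4 Sox2 arrays for 1068 genes (12.9%), 500 of them called. With array set as a block 813 genes were called. Within the A and B arrays the count was 100 and within the C and D arrays 110, with 2 arrays per group in each. For scale, the Sox2 hairpin against GFP changed 3565 genes (43.2%) and the Esrrb hairpin against GFP 959 (11.6%), of which 483 were higher (5.86%) and 476 lower (5.77%).

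The genes that fell furthest included genes of the oocyte and germline. Khdc3, which encodes a subunit of the maternal complex of oocytes and early embryos and is also active in ES cells, was at 6.82, 6.98, 7.01 and 6.93 with both hairpins, against 8.84, 8.81, 8.87 and 9.01 with the Sox2 hairpin. It fell by 1.95 (SE 0.13, adjusted p = 9.90e-07), or 3.86-fold, and the Esrrb hairpin against GFP gave -1.90, and the difference between these responses was -0.05 (SE 0.18). Its dual arrays lay close together, as did its Sox2 arrays, and the groups were far apart. Stra8, a gene induced by retinoic acid at the entry to meiosis, was at 5.13, 4.75, 5.40 and 4.99 with both hairpins, against 6.14, 5.89, 6.41 and 6.18 with the Sox2 hairpin. It fell by 1.09 (SE 0.20) and was detected on 1 of the 4 dual arrays, against all 4 Sox2 arrays. Of the 5 germ cell and oocyte genes measured, these 2 were called (40%, against 6.41% of all genes). The other 3 (Dazl, Ddx4 and Ooep) had differences of -0.26 to -0.06. Crxos, a homeobox gene opposite Crx, was at 6.67, 7.57, 6.70 and 6.57 with both hairpins, against 8.39, 8.30, 8.20 and 8.48 with the Sox2 hairpin. Its difference was -1.47 (SE 0.18), and dual array B stood between the other dual arrays and the Sox2 arrays. A second Crxos probe gave -0.47, which did not pass the test (adjusted p = 0.141).

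Several of the large falls were in genes that were dim with both hairpins, where the log2 scale, which adds an offset of 16 to the signal, understates the change. Nags, the mitochondrial enzyme that makes the activator of the urea cycle, was at 4.66, 4.88, 5.42 and 5.52 with both hairpins, against 6.63, 6.46, 6.99 and 6.87 with the Sox2 hairpin. It fell by 1.62 (SE 0.20) and was detected on 2 of the 4 dual arrays. Dio3, an imprinted gene for the enzyme that inactivates thyroid hormone, was at 6.26, 6.42, 6.67 and 6.02 with both hairpins, against 8.16, 8.05, 7.64 and 7.69. It fell by 1.54 (SE 0.16). Pyy, which encodes a gut peptide hormone, fell by 1.31 and Bex6 by 1.32. Defb42, a defensin gene, fell by 1.17, the haemoglobin gene Hba-a1, which has a near-identical copy that a probe may not separate, by 1.09, the transporter subunit gene Slc51a by 1.27 and Trim47 by 1.07. Slc51a and Trim47 were detected on 1 of the 4 dual arrays each, Defb42 and Hba-a1 on 2 and Bex6 on 3, against 4 of 4 Sox2 arrays for each gene.

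The nuclear receptor half-site AAGGTCA was looked for on both strands of a 300-base window at each gene's start, 250 bases before to 50 after, in RefSeq sequences of build GRCm38.p6, which held 6689 of the genes measured. It was found in 3.98% of all these genes, in 16 of 224 genes that fell (7.14%) and in 4 of 197 that rose (2.03%). For the Esrrb hairpin against GFP it was in 18 of 380 genes that fell (4.74%) and in 14 of 373 that rose (3.75%), both near the share of all genes. The longer form TCAAGGTCA was in 0.359% of all genes and in 2 of the 224 that fell, and each of its matches is also a match of the shorter form. The 12 largest falls all had a window, and 3 of them held the half-site. They are shown with the half-site or its reverse complement in capitals, on the gene's own strand, from chr6:34920728-34920784 (plus strand), chr11:102145310-102145366 (plus strand) and chr14:63046847-63046903 (plus strand).
Stra8: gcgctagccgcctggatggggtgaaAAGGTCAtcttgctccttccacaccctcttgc
Nags: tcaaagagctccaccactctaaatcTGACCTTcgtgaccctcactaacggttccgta
Defb42: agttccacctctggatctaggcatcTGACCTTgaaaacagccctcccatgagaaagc
With the letters ga that follow its capitals, the Defb42 stretch holds the reverse complement of the longer form. The stretches of Stra8 and Nags do not hold it. A match of letters is not a measured binding site, and all 3 genes were dim with both hairpins.

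Wnt8a and Hoxb1 rose furthest with both hairpins. Wnt8a, a Wnt ligand of the epiblast and primitive streak, was at 8.29, 8.47, 7.35 and 7.76 with both hairpins, against 6.93, 6.43, 6.64 and 6.39 with the Sox2 hairpin. It rose by 1.37 (SE 0.22, adjusted p = 0.0017), and a second probe gave 1.65. The C and D arrays were the lower dual arrays and still lay above all Sox2 arrays. Hoxb1, a homeobox gene of the posterior embryo and hindbrain, was at 7.27, 7.28, 6.43 and 6.69 with both hairpins, against 5.89, 5.92, 4.94 and 5.43. It rose by 1.37 (SE 0.31, adjusted p = 0.0152), a call that was lost without Sox2 array C, and was detected on all dual arrays and on 3 of 4 Sox2 arrays. Sp5, a zinc finger target of Wnt signalling, was at 9.69, 9.21, 9.06 and 9.41 with both hairpins, against 8.37, 8.08, 8.16 and 8.64, and rose by 1.03 (SE 0.17). Cdx1, a caudal homeobox gene also known as a Wnt target, went the other way, by -0.81 (SE 0.14), and its second probe gave -0.59, which did not pass (adjusted p = 0.0966). Of 9 Wnt pathway genes measured, Wnt8a and Sp5 were higher and Cdx1 was lower (33.3% called, against 6.41% of all genes). The other 6 did not pass the test, Axin2 among them at 0.32. Meis2, a homeobox cofactor gene, rose by 0.94 (SE 0.11), and Flt1, which encodes a receptor for vascular growth factors, by 0.95 (SE 0.16). Fxyd3, a regulator of the sodium pump, rose by 1.09, Mup6, of a family of near-identical major urinary proteins, by 1.03, and the lipid flippase gene Atp10a by 0.98. Fxyd3 and Atp10a were each detected on all dual arrays and on 3 of 4 Sox2 arrays.

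Lefty1, a secreted inhibitor of Nodal and itself a target of Nodal signalling, was at 11.40, 11.48, 10.999 and 11.14 with both hairpins, against 10.10, 9.99, 10.03 and 10.29 with the Sox2 hairpin. It rose by 1.15 (SE 0.12, adjusted p = 3.80e-05), or 2.22-fold. The Esrrb hairpin raised Lefty1 by 1.57 against GFP, and the 2 responses did not differ by the test (adjusted p = 0.21). Of 10 Nodal pathway genes 3 rose, the others being Lefty2 (0.41) and the protease gene Furin (0.29). The ligand gene Nodal fell by 0.39 (SE 0.10), so 40% were called, against 6.41% of all genes. The arrays of Nodal overlapped between the groups. The calls of Lefty2 and Nodal were lost under 11 and 10 of the alternatives tried, and the second Furin probe, at 0.28, did not pass (adjusted p = 0.751). The median of the 10 genes was 0.26.

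**Figure D1:**
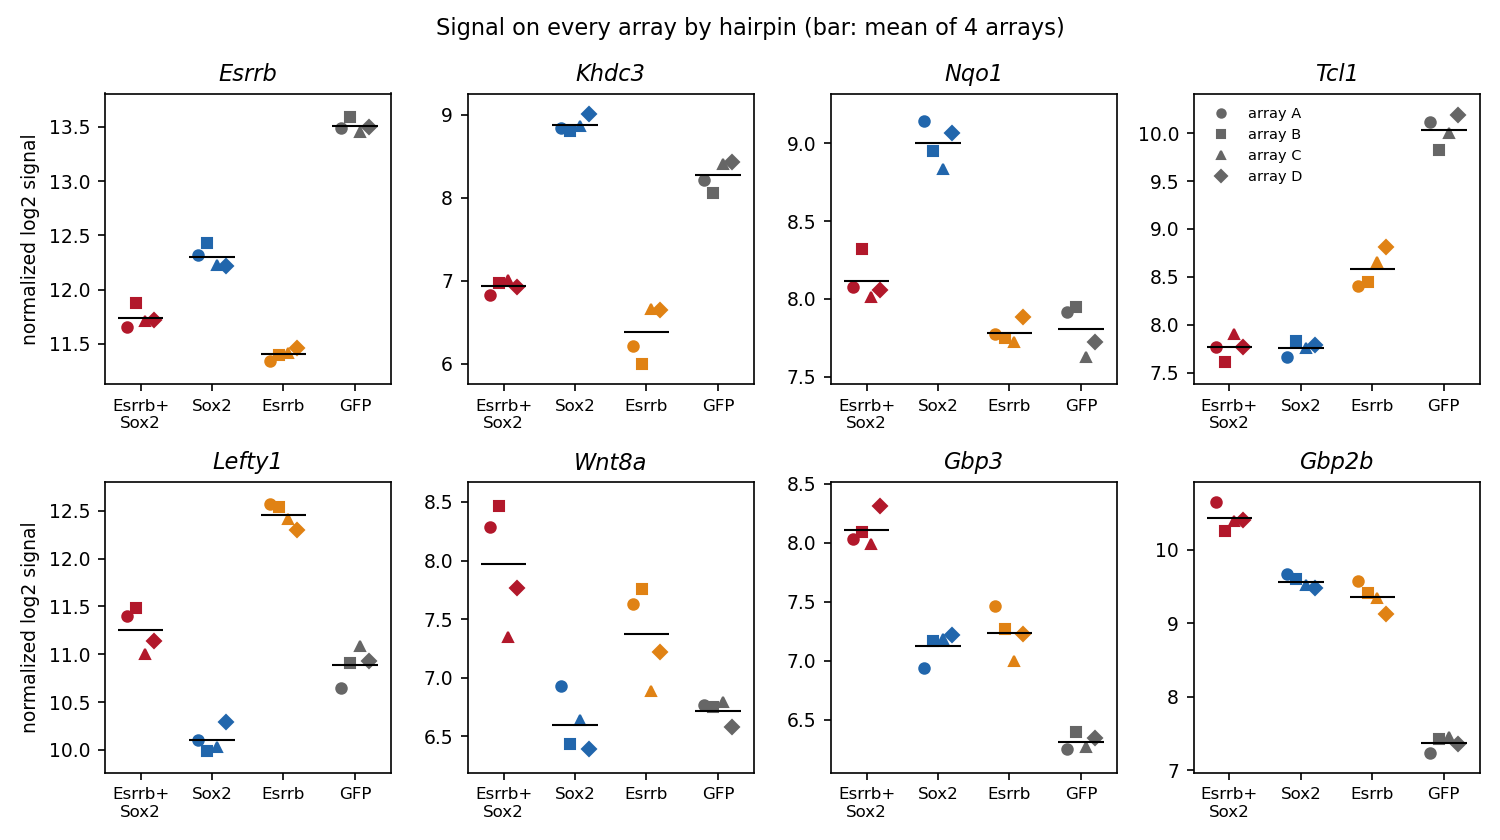
Normalized log2 signal of 8 genes on every array, with the hairpin on the x axis (Esrrb and Sox2 together, Sox2, Esrrb, GFP), 1 point per array shaped by its letter and a bar at the mean of 4 arrays. Khdc3 and Nqo1 lie lower with both hairpins than with the Sox2 hairpin, Lefty1, Wnt8a, Gbp3 and Gbp2b lie higher, and Tcl1 overlaps between these groups.

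Of the 9 genes of the FGF and ERK feedback list 4 rose and none fell (44.4%, against 3.2% of all genes), with a median of 0.31. With 1 array left out 4 to 5 rose and 0 to 1 fell. Where fewer arrays enter, 0 rose within the A and B arrays and 1 within the C and D arrays. With means of the sets as replicates 0 rose. Dusp6, a phosphatase that inactivates ERK, was at 11.38, 11.60, 11.37 and 11.41 with both hairpins, against 10.92, 10.83, 10.65 and 10.93 with the Sox2 hairpin. It rose by 0.61 (SE 0.09, adjusted p = 0.000635), and 2 dimmer probes of the gene gave 0.32 and 0.34, which did not pass. Egr1, an immediate early gene, rose by 0.56, Etv5, an ETS factor downstream of FGF, by 0.53, and the phosphatase gene Dusp4 by 0.48. Each of the 4 had dual arrays above every Sox2 array. The ETS gene Etv4 was at -0.23 (adjusted p = 0.0678). Dusp6, Egr1 and Etv5 had been lower with the Sox2 hairpin than with GFP, by 0.71, 0.95 and 1.31 log2 units. These figures share the Sox2 arrays with the rises just given.

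Several interferon response genes rose. Of 15 members 7 rose and none fell (46.7%, against 3.2% of all genes), and the median of the list was 0.46. The number that rose was 6 to 7 when 1 array was left out. Gbp3, a guanylate-binding protein induced by interferon, was at 8.04, 8.10, 7.99 and 8.31 with both hairpins, against 6.94, 7.17, 7.18 and 7.22 with the Sox2 hairpin. It rose by 0.98 (SE 0.10, adjusted p = 3.80e-05), or 1.97-fold, and a second probe gave 1.05. Gbp2b was at 10.65, 10.25, 10.39 and 10.41 with both hairpins, against 9.67, 9.60, 9.51 and 9.49, a rise of 0.86 (SE 0.10). Bst2, which tethers budding virus particles, was at 8.09, 8.57, 8.64 and 8.57 with both hairpins, against 7.50, 7.97, 7.06 and 7.76. Its rise of 0.90 (SE 0.19) came with Sox2 arrays that ran from 7.06 to 7.97. Isg15, a ubiquitin-like protein, rose by 0.87 (SE 0.24, adjusted p = 0.0426), with Sox2 arrays from 5.87 to 7.19, and its call was lost under 10 of the alternatives. Gbp2 at 0.77, Ifitm3 at 0.69 and the transcription factor gene Irf1 at 0.44 also rose, each with no overlap of arrays. Cxcl10 (0.51), Usp18 (0.46), Oasl2 (0.42) and Rsad2 (0.39) did not pass, although Cxcl10 (adjusted p = 0.0308) and Usp18 (adjusted p = 0.0217) passed with the array letter as a replicate block, which brought the count to 9 of 15. Stat2 and Irf9, of the factor that interferon activates, were at -0.12 and 0.02.

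With the Esrrb hairpin against GFP the list had a median of 0.47 and 7 members rose. Gbp2b (0.86 with the Sox2 hairpin present, 2.00 without) and Irf1 (0.44 and 1.16) responded less in Sox2-hairpin cells (adjusted p = 0.00021 and 0.00052 for the difference). The remaining 13 members had responses that did not differ by the test. Of 7 antigen presentation genes 2 rose as well, the peptide transporter subunit gene Tap2 by 0.50 and the immunoproteasome gene Psmb10 by 0.49. That is 28.6% called, against 6.41% of all genes.

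The letters TTTCNNTTTC, the core of the interferon-stimulated response element, were in the start window of 3.72% of all genes, of 14 of 197 genes that rose (7.11%) and of 8 of 224 that fell (3.57%). They were in 10 of the 13 interferon members with a window and in 6 of the 7 that rose. Both strands were searched. Interferon-induced genes are known for this element, so the matches describe their promoters and are no test. The stretches for 5 of the 6 follow with the matched letters in capitals, from chr3:142559974-142560033 (plus strand), chr3:142620579-142620638 (plus strand), chr3:142594685-142594744 (plus strand), chr8:71537568-71537627 (minus strand) and chr4:156200862-156200921 (minus strand), each on the gene's strand.
Gbp3: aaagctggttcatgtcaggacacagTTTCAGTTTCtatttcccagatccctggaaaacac
Gbp2: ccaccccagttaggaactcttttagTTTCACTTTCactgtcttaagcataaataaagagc
Gbp2b: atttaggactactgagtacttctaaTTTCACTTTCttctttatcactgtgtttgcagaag
Bst2: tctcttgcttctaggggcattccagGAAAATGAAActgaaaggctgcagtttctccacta
Isg15: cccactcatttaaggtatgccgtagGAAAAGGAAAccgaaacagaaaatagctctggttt
Bst2 and Isg15 hold the letters in reverse, and Gbp2 and Gbp2b hold identical letters there.

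Genes of the NRF2 antioxidant list were lower with both hairpins. NRF2, the product of Nfe2l2, is the factor that switches on detoxifying and redox genes in oxidative stress. Of 11 members 6 fell and none rose (54.5%, against 3.21% of all genes), all 11 were below 0 and the median was -0.43. The number that fell was 4 to 6 when 1 array was left out. Srxn1, which repairs oxidized peroxiredoxins, was at 9.54, 9.39, 9.30 and 9.51 with both hairpins, against 10.49, 10.27, 10.20 and 10.42 with the Sox2 hairpin. It fell by 0.91 (SE 0.09, adjusted p = 3.80e-05), or 1.88-fold, and both of its other probes were also called lower. Nqo1, a quinone reductase, was at 8.07, 8.32, 8.01 and 8.06 with both hairpins, against 9.14, 8.95, 8.84 and 9.07, a fall of 0.88 (SE 0.09, adjusted p = 4.16e-05). Cbr3, a carbonyl reductase, was at 9.82, 9.61, 9.77 and 9.86 with both hairpins, against 10.59, 10.40, 10.49 and 10.70, a fall of 0.78 (SE 0.09). Nfe2l2 itself was at 7.63, 7.03, 7.63 and 7.43, against 8.09, 7.88, 8.34 and 8.04, and fell by 0.66 (SE 0.14). For these 4 genes no dual array reached the lowest Sox2 array. Gstm1 (-0.44) and Gclm (-0.43), of glutathione use and synthesis, fell as well, with calls lost under 12 and 10 of the alternatives, whereas Hmox1 (-0.06) and Prdx1 (-0.17) did not pass.

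In cells without the Sox2 hairpin, the Esrrb hairpin against GFP gave a list median of 0.04, Cbr3 rose by 0.90 and the other 10 genes did not pass the test. The 2 responses differed for 5 of the 11 members (Cbr3, Gclm, Nfe2l2, Nqo1 and Srxn1), each lower in Sox2-hairpin cells. For Nqo1 the difference was -0.86 (adjusted p = 0.0015) and for Cbr3 it was -1.69 (adjusted p = 3.35e-06). On the Sox2 arrays these genes stood above GFP, Srxn1 by 1.64, Cbr3 by 1.38, Nqo1 by 1.20 and Nfe2l2 by 0.86. That contrast shares the Sox2 arrays with the falls, so the figures are given side by side only.

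The antioxidant response core TGACNNNGC, searched on both strands, was in the start windows of 16.5% of all genes, in 14.7% of those that fell and in 5 of the 8 NRF2 members with a window. Gclm and Nfe2l2 are shown with these letters or their reverse complement in capitals, as 2 of the 3 fallen members that hold them, on each gene's strand from chr3:122245398-122245456 (plus strand) and chr2:75704870-75704913 (minus strand).
Gclm: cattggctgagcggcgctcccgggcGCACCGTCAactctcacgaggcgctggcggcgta
Nfe2l2: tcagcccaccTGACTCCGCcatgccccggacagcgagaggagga
The windows of Nqo1, Cbr3 and Gstm1 do not hold these letters, which says nothing of sites elsewhere.

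**Figure D2:**
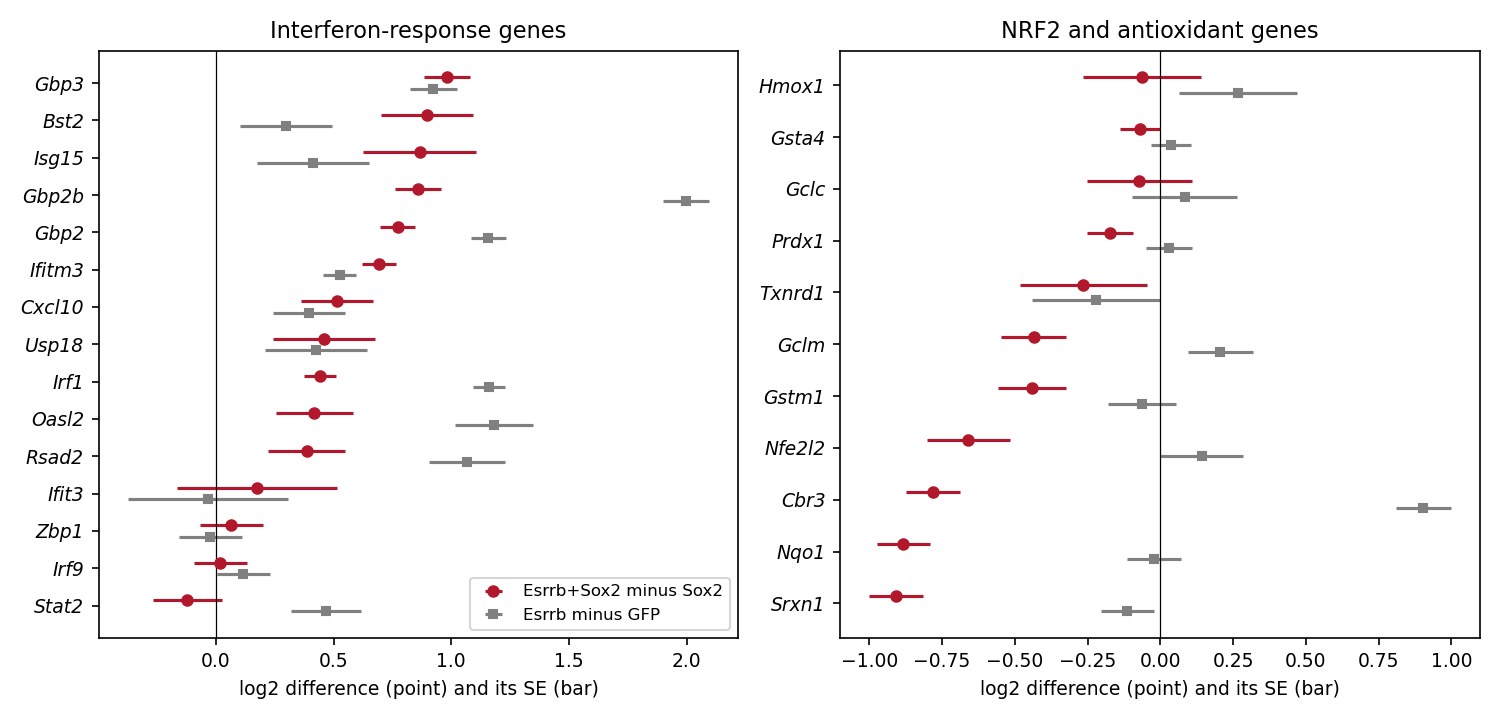
Log2 differences of the interferon response genes (left) and the NRF2 genes (right) for the Esrrb and Sox2 hairpins against the Sox2 hairpin (red circles) and the Esrrb hairpin against GFP (grey squares), with SE bars. The interferon genes lie to the right of 0 in both comparisons except for Stat2 (-0.12) in the red series and Ifit3 (-0.04) and Zbp1 (-0.02) in the grey one, while the NRF2 genes lie left of 0 in the red series, with Srxn1 lowest at -0.91.

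Naive pluripotency genes changed in both directions. Of 12 members 1 rose and 2 fell (25%, against 6.41% of all genes), with a median of -0.07, whereas against GFP the Esrrb hairpin alone lowered 9 and gave a median of -0.73. Gbx2, a homeobox gene that sustains ES cell self-renewal, was at 10.62, 10.73, 10.19 and 10.50 with both hairpins, against 9.61, 9.56, 9.37 and 9.61 with the Sox2 hairpin. It rose by 0.97 (SE 0.13, adjusted p = 0.000408), or 1.96-fold, with all dual arrays higher. Fbxo15, a classic reporter gene of the ES cell state, fell by 0.43 (SE 0.07), and the nuclear receptor gene Nr5a2 by 0.35 (SE 0.10). The Nr5a2 call was lost under 12 of the alternatives. For 6 members the response to the Esrrb hairpin differed with the Sox2 hairpin present, each being less negative or more positive (Jam2, Klf4, Klf5, Tbx3, Tcl1 and Zfp42). Tcl1, a coactivator of the kinase Akt, was at 7.77, 7.61, 7.90 and 7.77 with both hairpins, against 7.66, 7.83, 7.75 and 7.79 with the Sox2 hairpin, and these arrays overlapped. Without the Sox2 hairpin Tcl1 was at 8.40, 8.44, 8.66 and 8.82 with the Esrrb hairpin, against 10.11, 9.83, 10.002 and 10.19 with GFP, and fell by 1.45. Klf4, a Kruppel-like factor of reprogramming, was at -0.01 with the Sox2 hairpin present and -1.14 without, and the Sox2 hairpin alone had lowered it by 1.26 against GFP.

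Among general pluripotency genes, Eras, a Ras-like gene of ES cells, was at 8.13, 7.86, 8.12 and 7.76 with both hairpins, against 8.90, 8.86, 8.67 and 8.24 with the Sox2 hairpin. It fell by 0.70 (SE 0.13, adjusted p = 0.00339). L1td1 (0.62) and Zfp281 (0.41) rose, with overlapping arrays and calls lost under 13 and 11 of the alternatives. Pou5f1 was at -0.02 (SE 0.06) and Nanog at -0.16 (SE 0.11), and neither passed. In the primed epiblast list Pou3f1, a POU factor gene, rose by 0.43 beside Wnt8a. Otx2, a homeobox gene of the epiblast and anterior brain, was at 7.35, 7.12, 6.96 and 6.93 with both hairpins, against 7.81, 7.82, 7.69 and 8.20. It fell by 0.79 (SE 0.12, adjusted p = 0.00127), and the Esrrb hairpin against GFP gave -0.07, a response that differed from it by -0.72 (adjusted p = 0.039).

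Among genes of trophectoderm, the first extraembryonic lineage, 5 of 19 members rose and 2 fell (36.8%, against 6.41% of all genes), and the median was 0.27. Car4, a carbonic anhydrase, was at 10.82, 10.39, 10.96 and 10.77 with both hairpins, against 10.19, 10.23, 9.85 and 10.14 with the Sox2 hairpin, and rose by 0.63 (SE 0.13). The lineage regulator genes Cdx2 (0.48) and Gata3 (0.30), the keratin gene Krt7 (0.42) and Rhox6 (0.37) also rose. Phlda2, an imprinted gene that restrains placental growth, fell by 0.44 (SE 0.08) and the TEAD factor gene Tead4 by 0.41. The number that rose was 2 to 4 when 1 array was left out, with 2 without dual array A, without Sox2 array B or without Sox2 array C, and the calls of Rhox6, Tead4, Cdx2 and Krt7 were lost under 13, 11, 10 and 9 of the alternatives. Of the extraembryonic endoderm list 3 of 12 rose and none fell (25%, against 6.41% of all genes). All 3 were basement membrane genes: Col4a2 by 0.48, Col4a1 by 0.39 and Lamc1 by 0.31. The Col4a1 call was lost under 6 of the alternatives, 2 of them with 1 array left out. Of the 12 members 5 were below 0. None of 6 extraembryonic endoderm markers was called. Their summed signal was 872 to 1039 on the dual arrays and 915 to 1134 on the Sox2 arrays. In bulk RNA, fewer cells of a type and less RNA per cell cannot be told apart. The summed signal of the 8 trophectoderm markers was 20686 to 25403 on the dual arrays and 19779 to 22766 on the Sox2 arrays, which overlap, and the part of such cells in these results was not tested.

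Other signalling lists showed a few members each. In the BMP list Msx1 (0.44) and Id1 (0.29) rose and Id2, an inhibitor of basic helix-loop-helix factors, fell by 0.50, with 10 measured (30% called, against 6.41% of all genes). The Msx1 and Id2 calls were lost under 9 and 7 of the alternatives, and 1 gene rose in place of 2 without dual array B or D or without Sox2 array C or D. In the LIF and STAT3 list the feedback inhibitor gene Socs2 (0.39) and the AP-1 gene Junb (0.37) rose and Socs3 (-0.24) fell. With 11 measured, 27.3% were called, against 6.41% of all genes, and the arrays of Junb overlapped. These calls were lost under 8 (Socs2), 10 (Junb) and 12 (Socs3) of the alternatives, and none of the 3 passed without Sox2 array B or without Sox2 array D. Among actin and YAP target genes all 12 were above 0 with a median of 0.23. Tpm1 (0.45) and Ankrd1 (0.33) passed, 16.7% of the list against 6.41% of all genes. The Ankrd1 call was lost under 15 of the alternatives, 7 of them with 1 array left out, and its second probe gave 0.24 (adjusted p = 0.505). The tight junction gene Cldn6 rose by 0.38 and the annexin gene Anxa3 by 0.29, out of 16 adhesion genes (12.5% called, against 6.41%). In the two-cell-like list 1 of 11 changed (9.09%, against 6.41% of all genes), the deubiquitinase gene Usp17la, which fell by 0.99 (SE 0.12). It belongs to a family of near-identical copies that a probe may not separate. The cyclin gene Ccnd2 rose by 0.37, Dnajb9 of the endoplasmic reticulum fell by 0.43, the succinate dehydrogenase gene Sdhb by 0.34 and the transferrin receptor gene Tfrc by 0.44. Each was the only member called in its list. That is 10% of 10 Myc and G1 cyclin genes and 5.26% of 19 endoplasmic reticulum and ATF4 genes. It is 5% of 20 oxidative phosphorylation genes and 11.1% of 9 housekeeping genes. With 1 gene each, these shares are close to the 6.41% of all genes and are no result about the lists. The calls of Sdhb, Dnajb9 and Ccnd2 were lost under 11, 10 and 7 of the alternatives, and the second Sdhb probe, at -0.32, did not pass (adjusted p = 0.23).

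No member was called in limma in 11 lists, those of mesendoderm, neuroectoderm, Sox family, S phase and mitosis, p53, glycolysis, cholesterol synthesis, DNA methylation, ribosomal proteins, small RNA machinery and fibroblasts. One of the dimmer probes of Insig1, of the cholesterol list, was nevertheless lower by itself (-0.41, adjusted p = 0.00467). Of the 114 genes in these 11 lists 12 (10.5%) had an unadjusted p under 0.05 in limma, against 1764 of all genes (21.4%). These lists were picked for having no called member, and all genes include the called ones, so a lower share was fixed beforehand. The median of the 16 S phase and mitosis genes was -0.03, of 16 ribosomal protein genes 0.01 (-0.07 after median scaling), of 10 p53 pathway genes 0.07 and of 17 glycolysis genes -0.06. Of the 20 oxidative phosphorylation genes 18 were below 0, with a median of -0.10. Single genes nearest the threshold were Dicer1 at 0.25 (adjusted p = 0.0878) and Prkra at -0.34 (adjusted p = 0.0524) of the small RNA machinery, Phf19 at -0.45 (adjusted p = 0.108) of chromatin, Fgf8 at 0.56 (adjusted p = 0.118) of mesendoderm and Sox18 at -0.46 (adjusted p = 0.0578). With the array letter as a replicate block, Dicer1 (adjusted p = 0.0228), Prkra (adjusted p = 0.0473), Phf19 (adjusted p = 0.0429) and Fgf8 (adjusted p = 0.000843) passed.

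**Figure D3:**
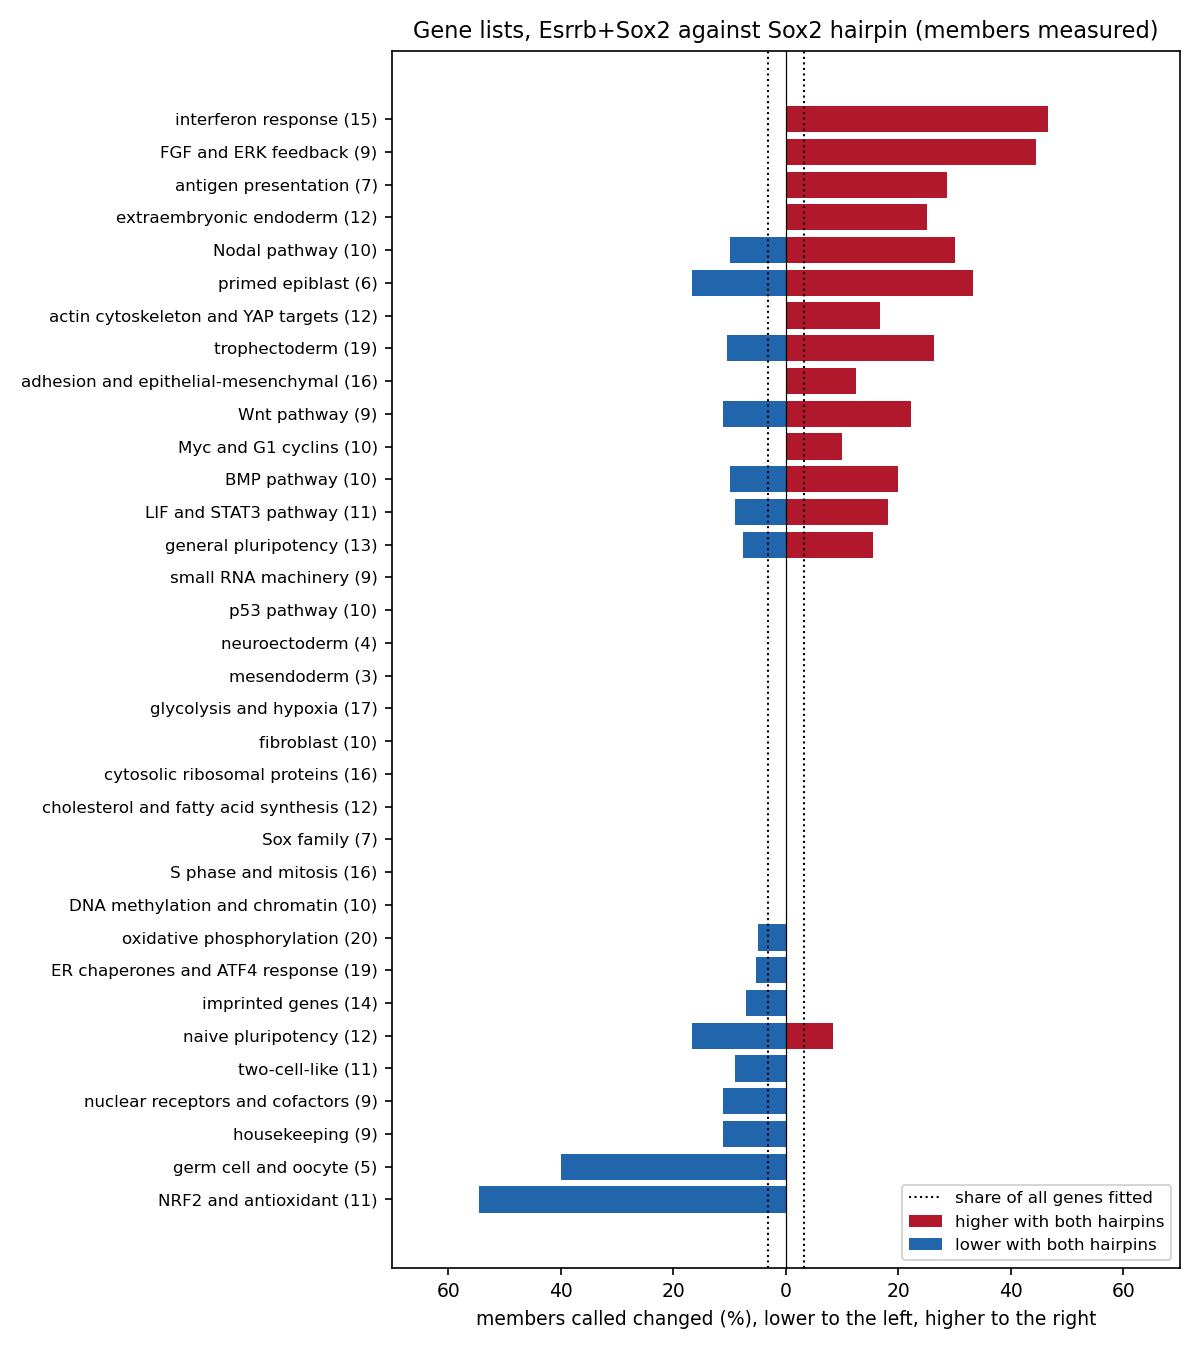
Share of measured members called higher (red, right of 0) or lower (blue, left of 0) with the Esrrb and Sox2 hairpins against the Sox2 hairpin, in percent, for each of 34 gene lists with the number measured in brackets. Dotted lines mark the shares of all genes, 3.2% higher and 3.21% lower. The NRF2 list has the longest bar to the left and the interferon list the longest to the right.

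The response to the Esrrb hairpin was then set against the same response without the Sox2 hairpin. The 2 responses share no array, but all arrays were normalized together and fall into the same 2 sets (A and B, C and D). Across the 8248 genes the responses had r = 0.39 (rho 0.33), as a description over genes that are not independent. It was 0.39 within the A and B arrays and 0.29 within the C and D arrays. Among the 959 genes called for the Esrrb hairpin against GFP, r was 0.60 and 731 (76.2%) kept their sign. The slope of the response with the Sox2 hairpin present on that without was 0.34. These 959 were picked by their response without the Sox2 hairpin, which can overstate that response and change r. The slope is therefore a description and does not measure how far the Sox2 hairpin damps the response. Both responses were called for 207 genes, which is 39.1% of the 529 and 21.6% of the 959. Of these 95 were higher in both, 104 lower in both and 8 went in opposite directions. The 8 were Apoa2, B020031M17Rik, Cbr3, Fcgrt, Glrx, Id2 and Timm8b, lower with the Sox2 hairpin present and higher without, and Fblim1, the other way round. They are named because they are all of this group, after their values were seen.

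The test of the difference itself called 238 genes (2.89%), 236 of them among the 8006, with 133 higher (1.61%) and 105 lower (1.27%) in Sox2-hairpin cells. With array set as a block it called 432. For 177 of the 238 the response was smaller in size with the Sox2 hairpin present, for 61 it was larger, and for 153 the 2 estimates had opposite signs. Of the 959 genes called for the Esrrb hairpin against GFP, 178 were called for the difference and 781 were not. Of the 529 genes called with the Sox2 hairpin present the figures were 72 and 457.

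Among the largest differences, several genes had fallen with the Esrrb hairpin against GFP and did not fall when the Sox2 hairpin was present. Inhbb, an activin subunit gene, was at 5.63, 5.76, 5.76 and 5.41 with both hairpins, against 5.29, 5.76, 5.26 and 5.86 with the Sox2 hairpin. It was at 5.36, 5.68, 5.57 and 5.67 with the Esrrb hairpin, against 7.26, 7.22, 7.35 and 7.01 with GFP, so that the difference of responses was 1.74 (SE 0.19, adjusted p = 9.2e-05). In this gene both single hairpins left a signal near the level of detection. Manba, a lysosomal mannosidase gene, stayed bright, at 10.08, 10.02, 10.02 and 9.77 with both hairpins, against 10.08, 10.18, 9.86 and 9.97 with the Sox2 hairpin, and was lower by 1.58 with the Esrrb hairpin against GFP. Msc, a helix-loop-helix repressor gene, had a difference of 2.23 (SE 0.27), Crtac1 of 1.46 and Tcl1 of 1.46.

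In the other direction, Pdzk1, a scaffold protein gene, was at 6.70, 6.603, 6.601 and 6.90 with both hairpins, against 6.64, 6.57, 6.37 and 6.49 with the Sox2 hairpin. It rose by 1.72 with the Esrrb hairpin against GFP, and the difference was -1.54 (SE 0.12, adjusted p = 3.35e-06). Apoa2, an apolipoprotein gene, was at 5.47, 5.24, 6.01 and 5.80 with both hairpins, against 6.82, 6.80, 6.56 and 6.39, a fall of 1.01 (SE 0.17), whereas it rose by 0.87 against GFP. Fcgrt, which encodes the neonatal Fc receptor, was at 7.61, 8.10, 8.15 and 8.03 with both hairpins, against 8.89, 9.01, 9.01 and 9.20, a fall of 1.05 (SE 0.11), and rose by 0.39 against GFP. Pigz, an enzyme gene of GPI anchor synthesis, was at 5.84, 5.89, 5.53 and 5.05 with both hairpins, against 7.23, 7.25, 6.88 and 6.83, a fall of 1.47 (SE 0.18). Pigz was not detected on any Esrrb or GFP array, so its difference of -1.51 rests on signals at background there. Zbtb7c had a difference of -1.14 (SE 0.25).

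**Figure D4:**
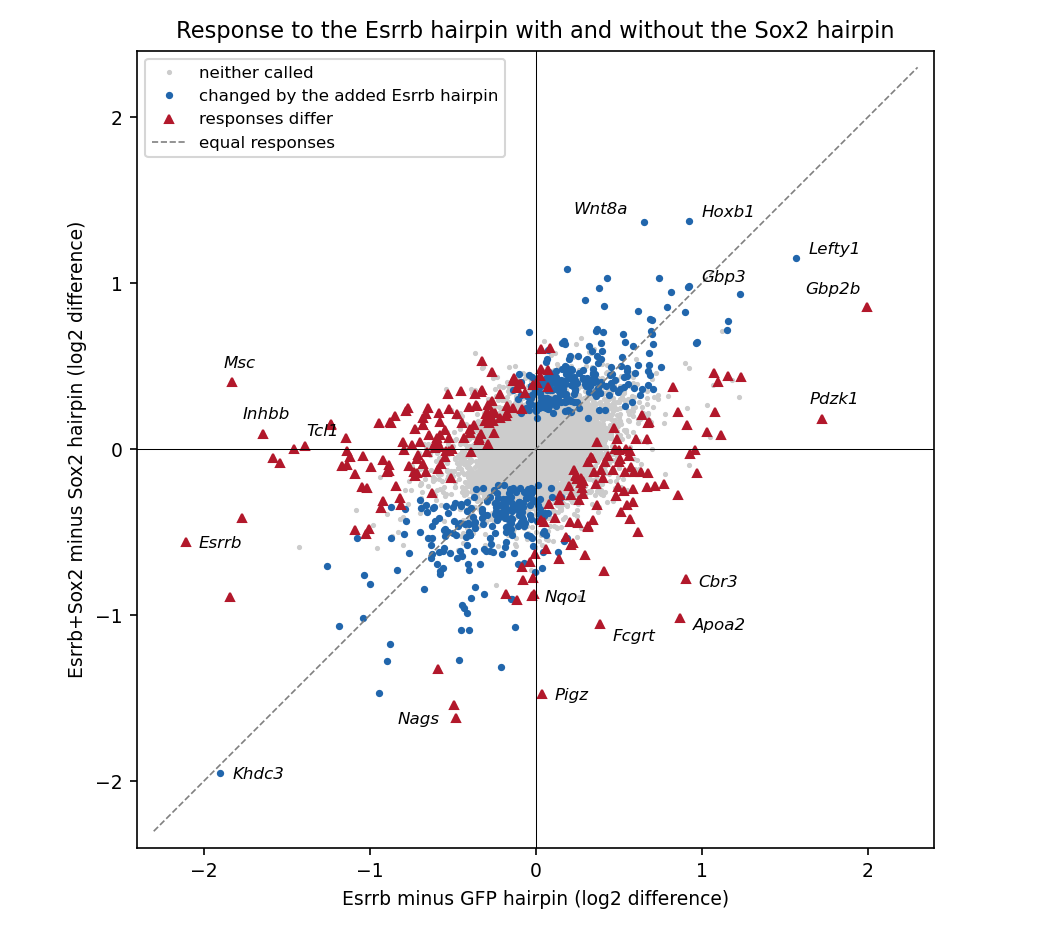
Log2 difference with the Esrrb and Sox2 hairpins against the Sox2 hairpin (y) and with the Esrrb hairpin against GFP (x). Each of 8248 genes is 1 point. Blue points are genes called on the y axis and not called for the difference, whether or not they were called on the x axis. Red triangles are genes whose 2 responses differ, and a dashed line marks equal responses. Khdc3 (-1.90, -1.95) lies on the line, Esrrb (-2.11, -0.56) and Inhbb (-1.64, 0.10) lie far above it, and Pigz (0.04, -1.47) lies below it.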

How the data were processed

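Array signals were used as the authors deposited them: linear intensities per probe for 16 arrays, which the file headers call non-normalized. The deposited detection score beside each intensity rises with the signal, and 1 minus this score was taken as the detection p. Another table of the authors holds 1 deposited ratio per probe and group, which served only as an alternative. The labels and headers do not state how that ratio was made, or the scanner software and its background step.

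The deposited intensities were turned into log2 values with neqc of limma 3.58.1 (R 4.3.3), which used quantiles over all 16 arrays and an offset of 16. Of 25697 probes, 23978 had 1 gene symbol and 23962 matched the RefSeq gene table by identifier. A probe had to be detected (p below 0.01) on every array of some group to be kept (11591 probes), and the probe with the highest mean stood for a gene (8248 genes). No gene had probes called in opposite directions. The linear model held a mean for each of the 4 groups and used the 16 arrays together, and adjusted p-values are limma's, Benjamini-Hochberg over 8248 genes. The number of arrays limits the precision. On simulated data for this contrast, with 8248 genes, 78% of changes of 0.5 log2 units and 91% of changes of 1 were recovered. Also called were 13 genes that had been given no change. The simulated arrays were independent, with 1 spread per gene for all groups and no array sets. The shares therefore do not give the recovery on the real arrays.

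Named genes are Esrrb and Sox2, the 12 largest rises and falls whose arrays did not overlap, the 6 largest differences of response each way, and up to 4 called members of each list (2 where none was called), without symbols of undescribed genes. Members and the 34 lists were chosen with earlier results of these data known, so no list is independent support. Genes outside the rule (among them Gbp2, Ifitm3, Irf1, Gclm, Gstm1, Klf4, Gata3, Rhox6 and Tead4) were named after their values were seen. Same-letter arrays of the dual and Sox2 groups deviated together (r = 0.23, 0.28, 0.32 and 0.30 across genes). Arrays of different letters in the same set did so as well. Their r was 0.22 (dual A with Sox2 B), 0.36 (B with A), 0.24 (C with D) and 0.45 (D with C). These values show the A and B or C and D set and no pairing by letter beyond it. The fit with the letter as a block is given as an alternative only. The deposited files name no genome build, so gene coordinates are not given; promoter sequences carry RefSeq's GRCm38.p6 coordinates.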

Additional observations from a re-analysis of the deposited data

Results flagged for a closer look

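Signals of 1 array stood apart from the other 3 of its group in 10 of 204 groups of 4 named-gene values, by Dixon's test at the 95% level, and chance alone flags about 1 in 20. On dual array A, Atp10a (7.12) and Socs2 (9.001) were high and Bst2 (8.09) and Dicer1 (8.92) low. On dual array B, Crxos (7.57) and Dusp6 (11.60) were high. On dual array C, Col4a2 (11.26) was high and Mup6 (7.43) low. In the Sox2 group, Cldn6 was low on array C (11.69) and Fxyd3 low on array B (5.12). In each case the other 3 arrays lay close together, for Crxos between 6.57 and 6.70.

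For 27 named genes the response to the Esrrb hairpin differed with and without the Sox2 hairpin by limma's test of that difference. The response was more positive in Sox2-hairpin cells for Msc (2.23), Inhbb (1.74), Esrrb (1.55), Manba (1.53), Crtac1 (1.46), Tcl1 (1.46), Ankrd1 (0.54) and Dusp6 (0.53), in log2 units. It was more negative for Apoa2 (-1.88), Cbr3 (-1.69), Pdzk1 (-1.54), Pigz (-1.51), Fcgrt (-1.44), Zbtb7c (-1.14), Gbp2b (-1.14), Nags (-1.14), Id2 (-1.11), Dio3 (-1.05) and Nqo1 (-0.86). The remaining negative ones were Ndrg1 (-0.82), Nfe2l2 (-0.80), Srxn1 (-0.80), Sox18 (-0.78), Bex6 (-0.74), Otx2 (-0.72), Phlda2 (-0.69) and Tfrc (-0.49).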

How the results depend on the processing

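The count of 529 changed genes and the 238 genes whose response differed moved with the setting. No named gene reversed where it was called in the main fit or under the alternative. With the array letter as a replicate block the counts were 730 and 356, 13 further list members passed (Cxcl10, Usp18, Dicer1, Fgf8, Phf19, Prkra, Ccnd3, Cox7a2, Gata2, Grb10, Osmr, Sall4 and Tfap2a), and no called list member or named gene lost its call against the Sox2 hairpin. With array set as a block they were 813 and 432. Within the array sets, the A and B arrays gave 100 and 25 and the C and D arrays 110 and 36, and means of the sets as replicates gave 21 and 9. Within these 3 settings 33.3% to 38.2% of called genes were higher, against 49.9% over all arrays and 42.8% after median scaling. Without a filter on detection they were 326 and 127, with 16593 genes tested. The differences numbered 367 without normalization between arrays, and a fit of only the 8 arrays compared called 302 changed genes. Leaving out 1 array at a time gave 333 (without Sox2 array B) to 516 changed genes and 167 to 241 differences. The Esrrb transcript missed the threshold with the A and B arrays (-0.61, adjusted p at the threshold) and with set means (-0.56, adjusted p = 0.0683), and the Sox2 transcript with the A and B arrays (-0.39, adjusted p = 0.112), the C and D arrays (-0.56, adjusted p = 0.0696) and set means (-0.48, adjusted p = 0.124), where fewer arrays enter. Of 2639 values of named genes recomputed under alternatives, 2314 counted as unchanged, 291 were no longer called, 21 became called and 13, from the deposited ratios, moved. Unchanged meant the same side of the threshold, with direction checked only for a value called in either fit. For the deposited ratios it meant a shift smaller than the larger SD of the 2 groups. The cause of the other shifts was not tested. With 1 array left out the list with the largest share of rises was not always that of interferon, nor that of falls always NRF2. Genes such as Nags, Slc51a, Stra8, Trim47, Defb42, Hba-a1 and Apoa2 were detected on 2 or fewer of the 4 dual arrays, which limits their values.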
